A study of Homo sapiens with 5 samples.

Results

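The mitotic entry and exit genes are 50 protein-coding genes, taken from the expression table by their symbols, that encode mitotic cyclins and kinases, activators and ubiquitin enzymes of the anaphase-promoting complex (APC/C), spindle motors and other spindle proteins, cytokinesis proteins and a few chromatin and transcription factors. All 50 were found among the 25343 genes of the table and all 50 were among the 15024 genes averaging 1 CPM or more that were compared, where CPM are counts scaled to an equal library total. RNA had been sequenced from 5 stable lines of H157, a human lung carcinoma cell line grown in RPMI-1640 with fetal bovine serum and collected in mid-log growth, and each line gave 1 library. The vector line carried a control vector and the YAP line YAP alone. The other 3 lines carried YAP together with a second protein, which was the full-length form of TEAD4 (the TEAD4-FL line, labelled YAP-TEAD434 and drawn as YAP/TEAD4-FL), its short splicing isoform (the TEAD4-S line, labelled YAP-TEAD305 and drawn as YAP/TEAD4-S) or the splicing factor RBM4 (labelled YAP-RBM4). YAP is the transcriptional co-activator held back by the Hippo kinases, and TEAD4 is a DNA-binding partner through which it acts. The sequencing asked how the 2 TEAD4 isoforms and RBM4 alter the transcript levels of cells that carry YAP.

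A cell enters mitosis when CDK1, bound to A- and B-type cyclins, is freed of its inhibitory phosphates by CDC25 phosphatases, against the action of the kinase WEE1. The kinases PLK1 and AURKA then mature the centrosomes, kinesins and microtubule proteins build the spindle, and the APC/C with CDC20, later with FZR1 (the Cdh1 protein), marks cyclin B and securin for destruction so that chromatids part and the cell divides. Most of these genes are transcribed periodically, with a peak in G2 and M, under the factors FOXM1 and MYBL2 (B-MYB) and through promoter elements named CHR and CCAAT. Their RNA is widely read as a mark of cycling cells. In RNA from whole cultures, fewer cells in mitosis and less of each RNA per cell cannot be told apart.

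Because each line gave 1 library, no test between lines was possible, and all differences are described by size. Totals of expected counts ran from 1399452 (YAP) to 3015173 (TEAD4-S), and the median member had between 18.5 counts (YAP) and 46.6 counts (TEAD4-FL). Ratios and levels of single genes carry exact 95% intervals (binomial for ratios, Poisson for levels) of the rounded counts, which cover counting error only. The constructs were read first. YAP1 was at 33.1 CPM in the vector library and at 102, 136, 59.4 and 103 CPM in the YAP, TEAD4-FL, TEAD4-S and RBM4-labelled libraries. TEAD4 was at 121 CPM with TEAD4-FL and 50.03 CPM with TEAD4-S, and between 3.57 and 5.73 CPM in the other 3 libraries. RBM4 was at 149.7 CPM in the vector library and 167 CPM in the RBM4-labelled library, and the interval of that ratio included 1 (1.12, interval 0.965 to 1.29), so that library is called RBM4-labelled throughout. In the YAP, TEAD4-FL and TEAD4-S libraries RBM4 was at 202, 198 and 132 CPM. Its level in the RBM4-labelled library was below that with TEAD4-FL (0.846, 0.741 to 0.965). The epithelial keratins KRT8 and KRT18 were detected in all 5 libraries (KRT8 from 253 to 1017 CPM), whereas EPCAM, KRT19 and KRT5 stayed at or under 2.29 CPM and TP63, NKX2-1 and SFTPC had no count. Of the fibroblast and blood or vessel markers, COL1A2, DCN, CD3E and VWF had no count in any library, while PTPRC and PECAM1 were read at 213 to 254 and at 94.0 to 148 CPM. Summed levels of the 10 epithelial, 6 fibroblast and 7 leukocyte and endothelial markers ran from 527 to 1406, 7.74 to 29.0 and 308 to 403 CPM. The epithelial sum was highest with TEAD4-FL, as the members' sum was, and its part in the results was not tested.

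The strand of the counts limits what a level means. The column names of the deposited table mention the second strand, and among 380 pairs of a gene and its antisense RNA (named with -AS1) the antisense RNA had the higher count in 230 pairs (60.5%). The sources used here do not say whether the library kit marks strand. Of the 50 members, 31 share no exon base with a gene on the opposite strand and 19 share some. The opposite RNA was the larger one at PRC1, HMMR and TUBB4B, among others. PRC1-AS1 was at 382 CPM over the 5 libraries against 41.4 CPM for PRC1. HMMR-AS1 was at 151 CPM against 3.59 CPM for HMMR, and FAM166A, opposite TUBB4B, was at 518 CPM against 84.7 CPM. These 3 opposite RNAs were highest in the YAP library and not in the TEAD4-FL library (PRC1-AS1 at 546 and 497 CPM, HMMR-AS1 at 215 and 175 CPM, FAM166A at 761 and 630 CPM), unlike the members beside them. All 3 were still above vector with TEAD4-FL (PRC1-AS1 2.26-fold, 2.03 to 2.52, HMMR-AS1 1.69-fold, 1.43 to 2.0, and FAM166A 1.42-fold, 1.31 to 1.54). BRD8, opposite KIF20A, was highest with TEAD4-FL, as KIF20A was (2.24-fold above vector, 1.23 to 4.28), and EXOSC9, opposite CCNA2, was 1.87-fold above vector (1.53 to 2.29). Their part in the members' values was not tested, and results are given with and without the 19 genes. Of the 50 members, 17 have named pseudogenes (TUBB4B has 8, CKS1B 7 and UBE2C 5), to which reads could have been split.

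Summed over the 50 members, the level was 907 CPM (counting interval 867 to 948) in the vector library, 1323 (1264 to 1385) with YAP, 1680 (1628 to 1732) with TEAD4-FL, 1132 (1094 to 1171) with TEAD4-S and 1342 (1298 to 1387) in the RBM4-labelled library. The 5 intervals do not overlap, except that those of YAP and of the RBM4-labelled library share most of their width. Against vector, the sum was 1.46-fold higher with YAP, 1.85-fold higher with TEAD4-FL, 1.25-fold higher with TEAD4-S and 1.48-fold higher in the RBM4-labelled library. The order of the last lines depended on the scaling. With TMM factors (a trimmed mean that discounts a few abundant genes) the ratios were 1.44, 1.73, 1.54 and 1.33, so TEAD4-FL stayed highest, while TEAD4-S moved from the lowest of the 4 to above YAP and the RBM4-labelled library. Without UBE2S, CCNA2 and TUBB4B, chosen for their high levels once these were seen, the 4 ratios on library totals were 1.44, 1.95, 1.28 and 1.56. The 31 genes with no opposite exon gave 1.54, 2.02, 1.31 and 1.68, and the 19 others gave 1.33, 1.60, 1.15 and 1.18.

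**Figure D1:**
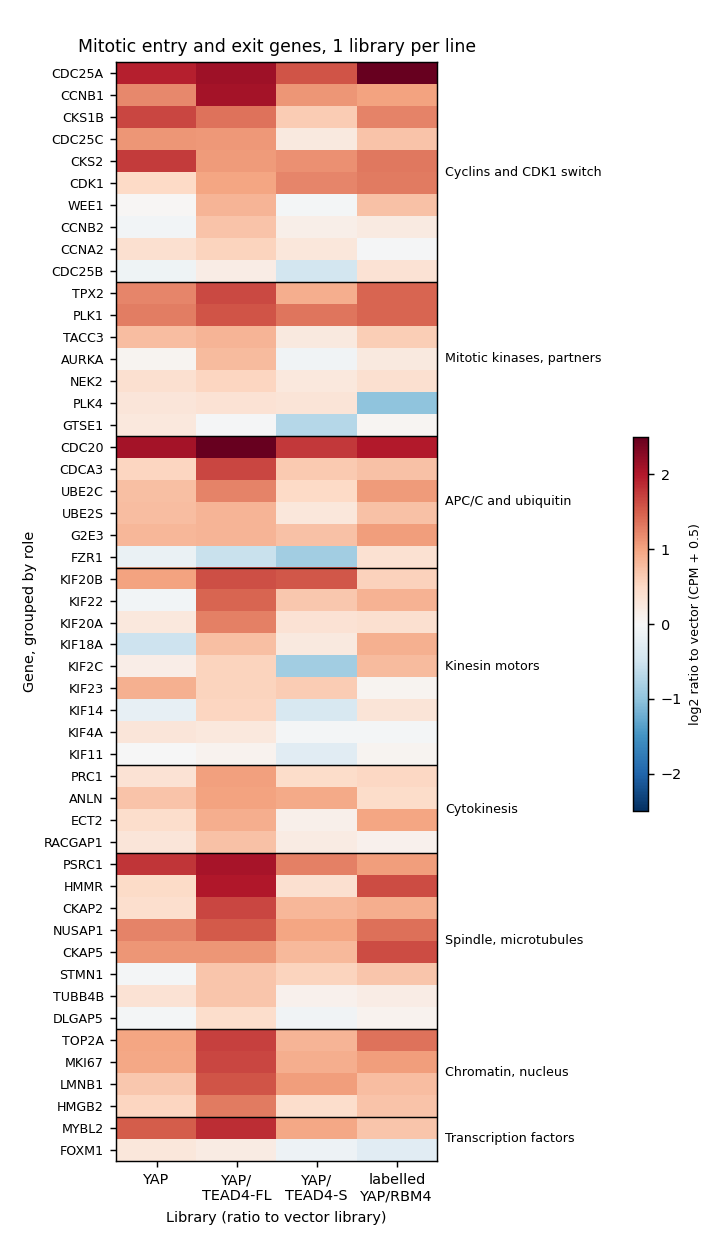
Colours give the log2 ratio of CPM to the vector library (0.5 CPM added to each) for the 50 genes in rows, grouped by role and sorted within a role by the TEAD4-FL column, in the 4 other libraries in columns, with 1 library per line. The TEAD4-FL column is red for 48 of 50 genes, beside 57.8% of all compared genes above 0, CDC20 is dark in all 4 columns, and FZR1 is blue in the YAP, TEAD4-FL and TEAD4-S columns.

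The promoters of 6 members are printed because these genes carry the range of the TEAD4-FL to vector ratios, with 0.5 CPM added to each level, among members at a mean of at least 10 CPM: CDC20, CCNB1, MYBL2, TOP2A and MKI67 had the 5 largest, and FZR1 the smallest. The sequences are RefSeq promoters (table build GRCh38.p14) from 250 bases before to 50 bases after the gene start, printed 5′ to 3′ on the strand of the gene. Each had 1 exact match in GRCh37, at chr1:43824402-43824701 (CDC20, plus strand), chr5:68462727-68463026 (CCNB1, plus strand), chr20:42295504-42295803 (MYBL2, plus strand), chr17:38574099-38574398 (TOP2A, minus strand), chr10:129924638-129924937 (MKI67, minus strand) and chr19:3506059-3506358 (FZR1, plus strand). Capitals mark CHR letters (TTTGAA or the variant TTTAAA) and the CCAAT box, on either strand, so that TTCAAA and ATTGG are the same motifs read on the other strand.
CDC20: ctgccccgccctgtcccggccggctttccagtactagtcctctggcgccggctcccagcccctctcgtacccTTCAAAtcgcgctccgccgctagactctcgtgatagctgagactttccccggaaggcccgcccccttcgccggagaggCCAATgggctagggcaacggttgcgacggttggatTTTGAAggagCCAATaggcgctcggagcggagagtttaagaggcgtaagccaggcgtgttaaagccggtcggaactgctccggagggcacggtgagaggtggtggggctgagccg
CCNB1: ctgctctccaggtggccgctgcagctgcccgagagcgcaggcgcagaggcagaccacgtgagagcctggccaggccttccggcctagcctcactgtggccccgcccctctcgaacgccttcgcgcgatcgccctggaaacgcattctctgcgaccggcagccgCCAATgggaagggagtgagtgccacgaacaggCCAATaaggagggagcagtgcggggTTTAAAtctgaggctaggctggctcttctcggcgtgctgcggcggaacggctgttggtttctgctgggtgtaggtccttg
MYBL2: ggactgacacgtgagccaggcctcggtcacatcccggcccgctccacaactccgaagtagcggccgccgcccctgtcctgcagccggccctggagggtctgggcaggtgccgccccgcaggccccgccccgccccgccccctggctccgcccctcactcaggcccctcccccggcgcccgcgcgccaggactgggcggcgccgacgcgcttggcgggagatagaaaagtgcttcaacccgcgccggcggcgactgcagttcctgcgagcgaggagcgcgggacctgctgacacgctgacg
TOP2A: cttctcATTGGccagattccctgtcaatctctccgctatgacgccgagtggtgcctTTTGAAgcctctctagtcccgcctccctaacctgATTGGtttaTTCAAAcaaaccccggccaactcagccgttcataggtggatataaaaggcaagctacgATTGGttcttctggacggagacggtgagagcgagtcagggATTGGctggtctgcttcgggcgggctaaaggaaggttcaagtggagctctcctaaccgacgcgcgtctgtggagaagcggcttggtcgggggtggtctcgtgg
MKI67: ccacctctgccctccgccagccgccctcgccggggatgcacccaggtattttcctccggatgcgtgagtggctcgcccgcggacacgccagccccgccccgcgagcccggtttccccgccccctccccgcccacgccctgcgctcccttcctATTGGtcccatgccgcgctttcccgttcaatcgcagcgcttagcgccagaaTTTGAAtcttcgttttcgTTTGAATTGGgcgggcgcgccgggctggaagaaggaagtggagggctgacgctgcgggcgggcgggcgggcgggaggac
FZR1: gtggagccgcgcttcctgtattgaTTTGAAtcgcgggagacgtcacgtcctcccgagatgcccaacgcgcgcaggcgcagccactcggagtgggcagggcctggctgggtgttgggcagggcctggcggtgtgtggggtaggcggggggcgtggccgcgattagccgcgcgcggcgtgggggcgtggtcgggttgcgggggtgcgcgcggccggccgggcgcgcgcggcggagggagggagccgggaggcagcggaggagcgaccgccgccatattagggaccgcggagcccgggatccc

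In CDC20 a CHR match began 65 bases before the gene start with CCAAT matches beginning at 100 and 55 bases before it. In CCNB1 the variant began 30 bases before the start, downstream of CCAAT matches at 87 and 55. The MKI67 promoter had CHR matches at 47 and 29 bases before the start, and the last letter of the nearer one is also the first of an ATTGG. TOP2A held 4 CCAAT matches, MYBL2 neither motif, and FZR1 a CHR match 226 bases before the start and no CCAAT. Promoters of 43 members were in the RefSeq table (WEE1, AURKA, TPX2, UBE2C, RACGAP1, HMGB2 and FOXM1 were not). Of these 43, 31 (72.1%) held TTTGAA or TTTAAA on either strand, against 24.3% of all 27305 promoters of the same length. Among the 11409 compared genes with a promoter the share was 16.9%. TTTGAA alone was in 27 (62.8% against 15.4%) and TTTAAA in 11 (25.6% against 12.3%). CCAAT was in 32 (74.4% against 35.7%), and a CHR match and CCAAT together in 25 (58.1% against 9.49%). Among the compared genes with a promoter these shares were 36.3% and 6.69%. The E2F-like letters TTGGCGC or TTCCCGC were in 9 (20.9%, against 9.33% of all promoters and 13.8% of the 11409 compared genes with a promoter). GGAATG, the letters that TEAD proteins are known to bind, were in 4 (9.30%, against 14% of all promoters and 11.0% of the compared genes with a promoter).

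The median log2 ratio of TEAD4-FL to vector, minus the median of all compared genes, was 0.92 in the 31 members with a CHR match and 0.87 in the 12 without. Over all compared genes with a promoter it was 0.03 in the 1923 with a match and 0.01 in the 9486 without. For CCAAT the member medians were 0.95 with (32 genes) and 0.75 without (11 genes), and for both motifs 0.97 (25 genes) and 0.76 (18 genes). With TEAD4-S the CCAAT medians were 0.88 and 0.62, and in the RBM4-labelled library 0.63 and 0.52. With YAP alone the order was the other way, at 0.49 with CCAAT and 0.67 without. There the medians were 0.51 and 0.60 for CHR, and 0.51 and 0.55 for both motifs. In the RBM4-labelled library 13 of the 32 members with CCAAT and 1 of the 11 without were 2-fold above vector, beside 10.2% and 8.99% of all genes with and without it. A match is only a run of letters, and its absence from this window says nothing of the factor.

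With YAP alone against vector, 12 of 50 members were at least 2-fold higher on the log2(CPM + 0.5) scale, beside 4.9% of all compared genes, and no member was 2-fold lower, beside 9.57%. The 12 were CCNB1, CKS1B, CKS2, CDC25A, CDC25C, PLK1, TPX2, CDC20, CKAP5, PSRC1, NUSAP1 and MYBL2. The counting interval of the ratio lay above 1 for 15 members (8.68% of all genes) and below 1 for none (7.41%). The median log2 ratio of the members was 0.49 above the median of all genes.

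The TEAD4-FL line had the largest member ratios as a group. In the TEAD4-FL library 25 of 50 members were at least 2-fold above vector, beside 8.9% of all compared genes, and none was 2-fold lower, beside 6.0%. The interval lay above 1 for 33 members (13.1% of all genes) and below 1 for none (8.69%), and the members' median was 0.90 above that of all genes. The 2-fold count was 21, beside 7.28%, when the libraries were scaled by TMM factors. Then 28 intervals lay above 1, a count given without the share of all genes. With TEAD4-S, 9 of 50 were 2-fold above vector, beside 3.5% of all genes, none was 2-fold lower, beside 11.0%, and 17 of 50 were 2-fold higher with TMM factors, beside 5.84%. The interval lay above 1 for 17 members, beside 2.84% of all genes, and below 1 for FZR1 and GTSE1, beside 24.4%. In that library the median of all genes stood at -0.29 on library totals, and the members' median lay 0.74 above that shift. In the RBM4-labelled library, 16 of 50 were at least 2-fold above vector, beside 9.22% of all genes (11 with TMM factors, beside 6.91%), and 1 (PLK4) was 2-fold lower, beside 3.47%. The interval lay above 1 for 15 members, beside 14.9% of all genes, and below 1 for none, beside 7.02%. There the members' median was 0.55 above that of all genes, whose own median was 0.17. For YAP and TEAD4-FL the medians of all genes were 0.00060 and 0.09. All 4 comparisons share the vector library, so any error in that library enters each of them.

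**Figure D2:**
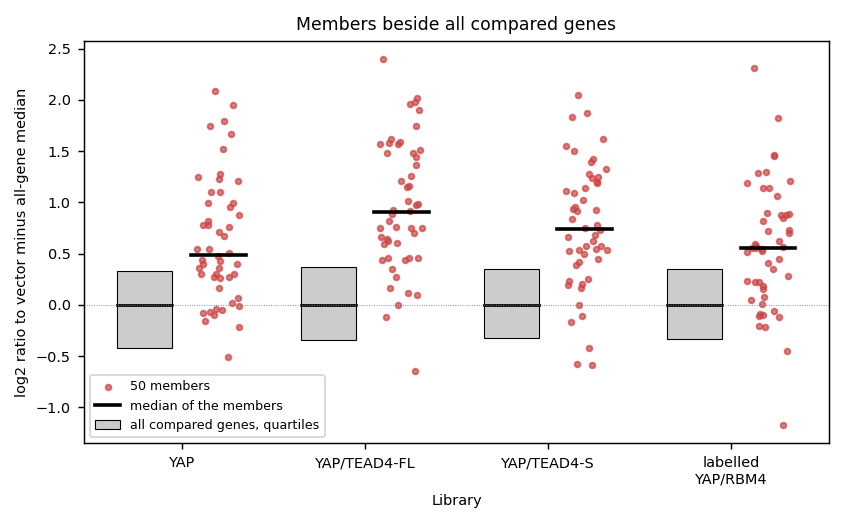
For each library, points are the 50 members and the grey box spans the quartiles of the 15024 compared genes, as log2 ratios to vector minus the median of all genes, which the dotted line at 0 marks. The thick bars, the medians of the members, stand at 0.49, 0.90, 0.74 and 0.55 from left to right, each above the upper quartile of all genes.

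Of the 50 members, 34 had their highest level in the TEAD4-FL library, beside 24.6% of all genes, and 33 had their lowest in the vector library, beside 16.5%. With TMM factors the first count was 25 (19.4% of all genes) and the second 33 (20.7%). TEAD4-S, which was highest for no member on library totals (3.27% of all genes), became highest for 11 of 50, beside 16.6% of all genes. TEAD4-FL lay above vector, TEAD4-S and the RBM4-labelled library together for 38 of 50 members, beside 31.2% of all genes. The study chose its target gene cluster by such a pattern on these same libraries, so the count is not independent evidence of its direction.

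The levels of single genes follow by role. For each gene the 5 levels are listed in the order vector, YAP, TEAD4-FL, TEAD4-S and the RBM4-labelled library. Levels of different genes can be compared only per length of exon, and by the mean CPM per kilobase UBE2S (72.4), TUBB4B (41.6) and CCNA2 (40.9) led, while WEE1 (0.211) was lowest.

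Among the cyclins and the genes that switch CDK1 on and off, CCNB1, the B-type cyclin whose destruction ends mitosis, had levels of 4.66, 11.4, 21.3, 10.6 and 9.93 CPM. It was 4.56-fold above vector with TEAD4-FL (2.29 to 10.1), and in both TEAD4-S (0.499 of TEAD4-FL, 0.310 to 0.791) and the RBM4-labelled library (0.466, 0.279 to 0.762) it was about as high as with YAP alone. With TMM factors the TEAD4-S interval included 1 (0.656, 0.408 to 1.04). CCNB2, the other B-type cyclin, was at 12.8, 12.1, 21.3, 14.3 and 14.9 CPM, with only TEAD4-FL above vector beyond counting error (1.69, 1.04 to 2.80), and no library with TMM factors (TEAD4-FL 1.58, 0.973 to 2.62). CCNA2, the cyclin of S phase and G2, was at 93.9, 124, 138, 114 and 91.6 CPM. Its spread was narrow, and the RBM4-labelled library lay no higher than vector (0.978, 0.807 to 1.19). CDC25C, a phosphatase that activates CDK1 at entry into mitosis, was at 6.06, 13.6, 13.4, 7.30 and 10.3 CPM, and TEAD4-FL over YAP was 0.983, with an interval of 0.541 to 1.84. CDC25B, a phosphatase that starts the activation, was at 25.3, 23.6, 29.0, 18.4 and 32.5 CPM, with no library apart from vector beyond counting error. CDK1, CKS1B, CKS2, CDC25A and WEE1 rested on few counts. CDK1 itself was at 1.86, 2.86, 4.17, 4.97 and 5.34 CPM, and all 4 intervals of its ratios to vector included 1, although with TMM factors TEAD4-S lay above (3.28, 1.05 to 13.6). CKS1B, a small CDK-binding subunit, was 3.58-fold above vector with YAP (1.29 to 11.4) and 2.83-fold with TEAD4-FL (1.09 to 8.67). CKS2, its paralog, was at 0.932 CPM in vector and 2.5 to 4.29 CPM elsewhere, and WEE1 lay between 1.33 and 2.92 CPM. CDC25A had no count in the vector library (interval up to 1.72 CPM) and was at 0.995 to 2.29 CPM elsewhere. Its 2-fold calls therefore depend on the 0.5 CPM added. Without it the 2-fold counts against vector were 11, 24, 8 and 15 of 49. With it set at no less than 3 counts (1.4 CPM in vector), the medians above all genes were 0.49, 0.85, 0.70 and 0.55.

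Summed over these 10 genes the level was 1.37-fold above vector with YAP (1.16 to 1.61), 1.62-fold with TEAD4-FL (1.41 to 1.86), 1.20-fold with TEAD4-S (1.04 to 1.38) and 1.20-fold in the RBM4-labelled library (1.04 to 1.39). With TMM factors TEAD4-S was at 1.47-fold (1.28 to 1.70). The RBM4-labelled library was then at 1.08-fold (0.935 to 1.25), an interval that included 1.

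The mitotic kinases and their partners were less even. TPX2, which activates AURKA and nucleates spindle microtubules, was at 9.79, 23.6, 32.0, 18.9 and 27.9 CPM, above vector beyond counting error in all 4 libraries. AURKA, the kinase it activates, was at 11.0, 11.5, 19.3, 10.3 and 13.1 CPM, and only TEAD4-FL stood above vector (1.72, 1.03 to 2.94), a call lost with TMM factors (1.60, 0.959 to 2.75). TACC3, a partner of AURKA on spindle fibres, was at 9.79, 17.1, 17.9, 11.6 and 15.3 CPM, again with only TEAD4-FL beyond counting error (1.83, 1.06 to 3.25) and none with TMM factors (1.71, 0.995 to 3.04). NEK2, which separates the centrosomes, was at 28.9, 38.3, 41.9, 34.7 and 38.2 CPM, with TEAD4-FL above vector on library totals (1.44, 1.04 to 2.01). With TMM factors that interval included 1 (1.35, 0.974 to 1.88) and the one of TEAD4-S lay above it (1.48, 1.07 to 2.06). GTSE1, a microtubule-binding protein of G2, was at 28.8, 34.8, 28.3, 17.4 and 29.8 CPM, and was lower than vector with TEAD4-S (0.608, 0.413 to 0.892). With TMM factors no member's interval lay below vector in that library, so this depends on the scaling. PLK1, the polo-like kinase of mitotic entry, was at 2.33, 6.38, 7.93, 6.63 and 7.25 CPM, and was above vector with TEAD4-FL (3.40, 1.23 to 11.7), TEAD4-S (2.85, 1.04 to 9.70) and in the RBM4-labelled library (3.11, 1.12 to 10.7), all on 5 counts in vector. PLK4, which licenses centriole duplication, lay between 1.15 and 3.76 CPM and its intervals all included 1. The group sum was 1.62-fold above vector with TEAD4-FL (1.36 to 1.93) and 1.11-fold with TEAD4-S (0.923 to 1.33). With TMM factors it was 1.52-fold (1.27 to 1.81) and 1.36-fold (1.14 to 1.63), so the TEAD4-S interval then lay above 1.

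The APC/C and its ubiquitin enzymes held both ends of the range. CDC20, the co-activator that starts anaphase, was at 8.86, 39.3, 52.2, 31.2 and 36.7 CPM. Its ratio to vector was 4.44 (2.59 to 7.92) with YAP, 5.89 (3.62 to 10.1) with TEAD4-FL, 3.52 (2.13 to 6.10) with TEAD4-S and 4.14 (2.51 to 7.17) in the RBM4-labelled library. YAP and TEAD4-FL differed by less than counting error (1.33, 0.959 to 1.86). FZR1, the co-activator that takes over from CDC20 at mitotic exit and in G1, was at 16.8, 15.01, 11.3, 8.95 and 22.1 CPM. It was below vector with TEAD4-S (0.534, 0.312 to 0.904), an interval that did not stay below 1 with TMM factors, and with TEAD4-FL the interval included 1 (0.671, 0.392 to 1.14). The library labelled YAP/RBM4 stood above TEAD4-FL (1.97, 1.22 to 3.23). UBE2C, the ubiquitin-conjugating enzyme that begins chains on APC/C substrates, was at 11.2, 19.3, 27.1, 15.9 and 24.1 CPM. UBE2S, which extends those chains, was at 137, 234, 248, 167 and 227 CPM, so that YAP, TEAD4-FL and the RBM4-labelled library were close and TEAD4-S lay between them and vector. UBE2S shares 24.1% of its exon bases with another gene on its own strand. CDCA3, which promotes destruction of WEE1, was at 2.78, 4.29, 10.0, 4.64 and 4.96 CPM, and GNB3 on the opposite strand, which shares 11.3% of its exon bases, was 3.50-fold above vector with TEAD4-FL (2.2 to 5.80) beside 3.58-fold for CDCA3 (1.43 to 10.7). G2E3, a ubiquitin ligase of G2, lay between 1.4 and 3.44 CPM.

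**Figure D3:**
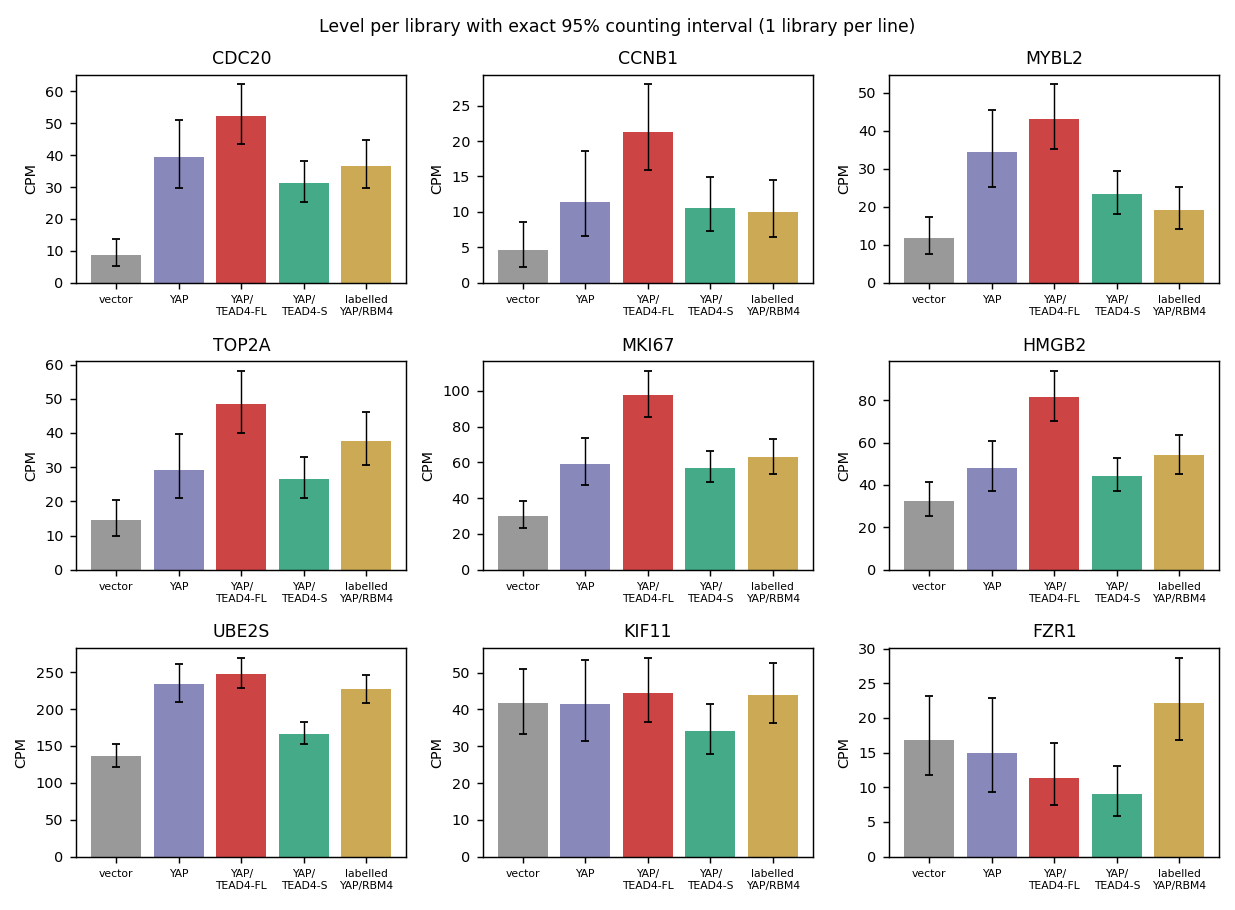
Bars are the CPM of 9 members in the 5 libraries (1 library per line) and whiskers the exact 95% Poisson interval of the counts, with a separate y axis for each gene. CDC20, CCNB1, MYBL2, TOP2A, MKI67 and HMGB2 are highest with TEAD4-FL, KIF11 is nearly level at 34.1 to 44.6 CPM, and FZR1 is highest in the RBM4-labelled library.

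Of the 9 kinesins, KIF11, the motor that pushes spindle poles apart, was at 41.7, 41.5, 44.6, 34.1 and 43.9 CPM, and no library stood apart from vector beyond counting error. KIF14, a motor of cytokinesis, was at 25.1, 21.5, 36.4, 19.0 and 31.5 CPM, and KIF20A, which works at the midzone, at 7.07, 8.57, 17.5, 9.29 and 9.54 CPM. Both were highest with TEAD4-FL, and both lay above YAP alone beyond counting error there (1.69, 1.11 to 2.66, and 2.04, 1.06 to 4.26). KIF22, a chromosome-arm motor, was at 6.06, 5.72, 17.5, 9.95 and 11.5 CPM, 3.07-fold above YAP alone with TEAD4-FL (1.42 to 7.56). KIF2C, which depolymerises microtubules at centromeres, was at 9.5, 10.7, 14.2, 4.97 and 16.8 CPM. Its level with TEAD4-S was 0.351 of that with TEAD4-FL (0.177 to 0.661), the lowest such ratio among members at a mean of at least 10 CPM. KIF20B was at 3.69, 7.87, 12.3, 11.7 and 5.78 CPM, and was above vector with both TEAD4 isoforms (3.24, 1.45 to 8.21, and 3.11, 1.42 to 7.77). KIF18A, KIF23 and KIF4A lay between 2.14 and 6.49 CPM, and all their intervals against vector included 1. The kinesins' sum was 1.52-fold above vector with TEAD4-FL (1.29 to 1.80), 1.06-fold with YAP (0.855 to 1.30) and 0.986-fold with TEAD4-S (0.828 to 1.18). With TMM factors the TEAD4-S sum was 1.21-fold above vector (1.02 to 1.45).

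Of the 4 cytokinesis genes, 3 had an interval above vector with TEAD4-FL, beside 13.1% of all compared genes. ANLN (anillin, which organises the contractile ring) was at 10.7, 17.9, 22.1, 21.2 and 14.9 CPM, and TEAD4-S over TEAD4-FL was 0.960 (0.657 to 1.41). ECT2, the exchange factor that switches on RhoA at the cell equator, was at 20.3, 27.7, 38.7, 22.3 and 40.8 CPM. PRC1, which bundles midzone microtubules, was at 28.9, 37.2, 59.2, 40.1 and 41.6 CPM, with 34.3% of its exon bases opposite PRC1-AS1 and 57.6% shared with another gene on its own strand. RACGAP1, the partner of KIF23 in centralspindlin, stayed between 2.80 and 5.01 CPM. Their sum was 2.0-fold above vector with TEAD4-FL (1.63 to 2.47) and 1.39-fold with TEAD4-S (1.13 to 1.73). With TMM factors the sum was 1.87-fold (1.52 to 2.32) and 1.71-fold (1.38 to 2.12) in the same order.

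Among the other spindle and microtubule proteins, STMN1 (stathmin, which binds free tubulin) was at 39.1, 37.9, 63.9, 57.7 and 63.5 CPM. With YAP alone the ratio to vector was close to 1 (0.967, 0.672 to 1.38), while the other 3 lines were 1.47 to 1.63 times vector, with all 3 intervals above 1. CKAP5, a microtubule polymerase, was at 12.7, 27.9, 28.0, 22.6 and 40.5 CPM, and was highest in the RBM4-labelled library (3.21-fold above vector, 2.09 to 5.10). TUBB4B, a beta-tubulin, was at 69.3, 89.1, 112, 74.4 and 78.4 CPM, NUSAP1, a microtubule stabiliser, at 5.13, 12.9, 15.9, 10.6 and 14.1 CPM, and DLGAP5, which stabilises kinetochore fibres, at 14.2, 13.8, 19.6, 13.3 and 15.1 CPM. NUSAP1 was above vector beyond counting error in all 4 libraries, and DLGAP5 in none. NUSAP1 shares 86.8% of its exon bases with another gene on its own strand. CKAP2, PSRC1 and HMMR, at a mean under 10 CPM, were each highest with TEAD4-FL (15.9, 11.3 and 7.09 CPM against 4.66, 2.33 and 1.4 CPM in vector). HMMR, a receptor of hyaluronan that also holds spindle poles together, was 5.07-fold above vector (1.47 to 27.0) on 3 counts in the vector library. The group sum was 1.84-fold above vector with TEAD4-FL (1.61 to 2.11).

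The 4 chromatin and nuclear genes had the largest ratio of a group sum to vector with TEAD4-FL, 2.95 (2.5 to 3.51), beside 1.75-fold with YAP, 1.69-fold with TEAD4-S and 1.98-fold in the RBM4-labelled library. With TMM factors TEAD4-FL was at 2.76-fold, YAP at 1.73-fold, TEAD4-S at 2.08-fold and the RBM4-labelled library at 1.78-fold. TOP2A, the topoisomerase that untangles sister chromatids, was at 14.5, 29.3, 48.4, 26.5 and 37.8 CPM. MKI67, which coats mitotic chromosomes and is the classical proliferation antigen, was at 30.3, 59.3, 97.6, 57.0 and 63.0 CPM. HMGB2, a DNA-bending protein of dividing cells, was at 32.6, 47.9, 81.4, 44.4 and 53.9 CPM, and LMNB1, the lamin of the nuclear envelope, at 6.53, 10.7, 20.4, 13.9 and 11.5 CPM. All 4 were above YAP alone beyond counting error with TEAD4-FL (1.65, 1.65, 1.70 and 1.91 times YAP, intervals 1.15 to 2.42, 1.28 to 2.14, 1.28 to 2.28 and 1.05 to 3.66). Of all compared genes, 9.53% had such an interval. On library totals the levels of TOP2A, MKI67 and HMGB2 with TEAD4-S were close to those with YAP alone. With TMM factors the group sum was higher with TEAD4-S (2.08-fold) than with YAP (1.73-fold).

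The 2 transcription factors of the G2 and M programme had unlike values. MYBL2 was at 11.7, 34.3, 43.0, 23.2 and 19.1 CPM, 2.94-fold above vector with YAP (1.78 to 4.98) and 3.69-fold with TEAD4-FL (2.36 to 5.96). In the RBM4-labelled library it was 0.444 of TEAD4-FL (0.310 to 0.629). FOXM1 was at 74.1, 89.7, 85.6, 67.9 and 61.0 CPM, and no ratio to vector had an interval apart from 1. FOXM1 shares 15.9% of its exon bases with ITFG2 on the opposite strand, which was at 3.41 CPM. With TMM factors the interval of FOXM1 lay below vector in the RBM4-labelled library.

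**Figure D4:**
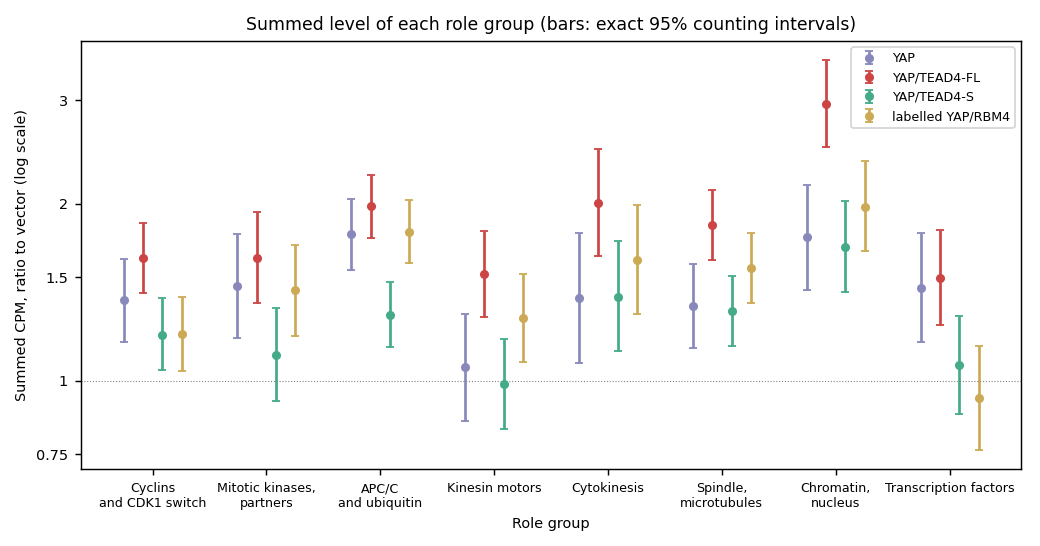
Points are the summed CPM of each role group as a ratio to vector (log axis) in the 4 other libraries, with exact 95% counting intervals and 1 library per line. TEAD4-FL gives the highest point in all 8 groups, from 1.5 for the transcription factors to 2.95 for the chromatin and nuclear genes, on library totals. TEAD4-S lies at 0.986 for the kinesins and 1.06 for the transcription factors, values that were 1.21 and 1.31 with TMM factors, under which YAP (1.42) passed TEAD4-FL (1.4) for the transcription factors.

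The 17 members at a mean under 10 CPM had medians of 2.78, 4.29, 5.85, 4.64 and 4.96 CPM in the 5 libraries, in the same order, and at most 11 counts in the vector library. Of these 17, 9 were at least 2-fold above vector with TEAD4-FL and 7 had an interval above 1, beside 15.7% and 6.58% of the 6719 compared genes under 10 CPM. They made up 9 of the 25 members called 2-fold, and 16 of the 33 members averaging 10 CPM or more were called, beside 3.41% of all genes at that level.

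Set directly against YAP alone, TEAD4-FL had 5 of 50 members at least 2-fold higher, beside 11.6% of all genes, a share below the background, and none 2-fold lower, beside 3.94%. They were CDCA3, KIF18A, KIF22, CKAP2 and HMMR, of which KIF22 alone had a mean of at least 10 CPM. In terms of counting intervals, 12 members lay above YAP (9.53% of all genes) and none below (7.35%), and the members' median was 0.30 above that of all genes. The 12 were CCNB1, KIF20A, KIF14, KIF22, PRC1, CKAP2, STMN1, TUBB4B, TOP2A, MKI67, HMGB2 and LMNB1. With TMM factors it was the same list without CCNB1 and TUBB4B (10 members), a count given without the share of all genes. CDC20, MYBL2 and TPX2 were already above vector beyond counting error with YAP alone, and their ratios of TEAD4-FL to YAP had intervals that included 1, whereas KIF14, KIF22, STMN1 and CCNB2 were no higher with YAP than with vector.

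The isoform comparison set TEAD4-S against TEAD4-FL. The 2 libraries also differed in the constructs' RNA on library totals. With TEAD4-S, YAP1 was at 0.438 (0.363 to 0.527) and TEAD4 at 0.415 (0.339 to 0.507) of the level with TEAD4-FL. The part of these levels in the members' ratios was not tested. Of the 50 members, 3 were at least 2-fold lower (KIF2C, CDCA3 and HMMR), beside 11.2% of all genes, and none was 2-fold higher (2.22%). The ratio was above 1 for 3 of 50, beside 18.7% of all genes, and for 25 the counting interval lay below 1, beside 30.8% of all genes, and above 1 for none, beside 1.49%. The 2-fold share was below the background and the interval share above it, on a scale where the median of all genes was itself at -0.38. Relative to that median the members stood at -0.20. With TMM factors, which take out most of the shift, 8 members had an interval below 1, beside 6.84% of all genes, and none above. They were UBE2S, KIF2C, KIF14, HMMR, TOP2A, MKI67, HMGB2 and MYBL2. Their ratios on library totals were 0.672, 0.351, 0.521, 0.281, 0.548, 0.584, 0.546 and 0.540 in that order, HMMR on few counts.

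The RBM4-labelled library was compared with TEAD4-FL in the same way. Here 5 members were at least 2-fold lower (CCNB1, PLK4, KIF20B, PSRC1 and MYBL2), beside 3.55% of all genes, and none was 2-fold higher (6.66%). The interval lay below 1 for 14 members (7.65% of all genes) and above 1 for FZR1 and CKAP5 (10.9%). With TMM factors the counts were 18 below and 2 above, given without the share of all genes, so they cannot be set against the background. The members' median was -0.43 relative to all genes, whose own median was 0.07. Both comparisons share the TEAD4-FL library, and a high reading in that library would lower both.

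**Figure D5:**
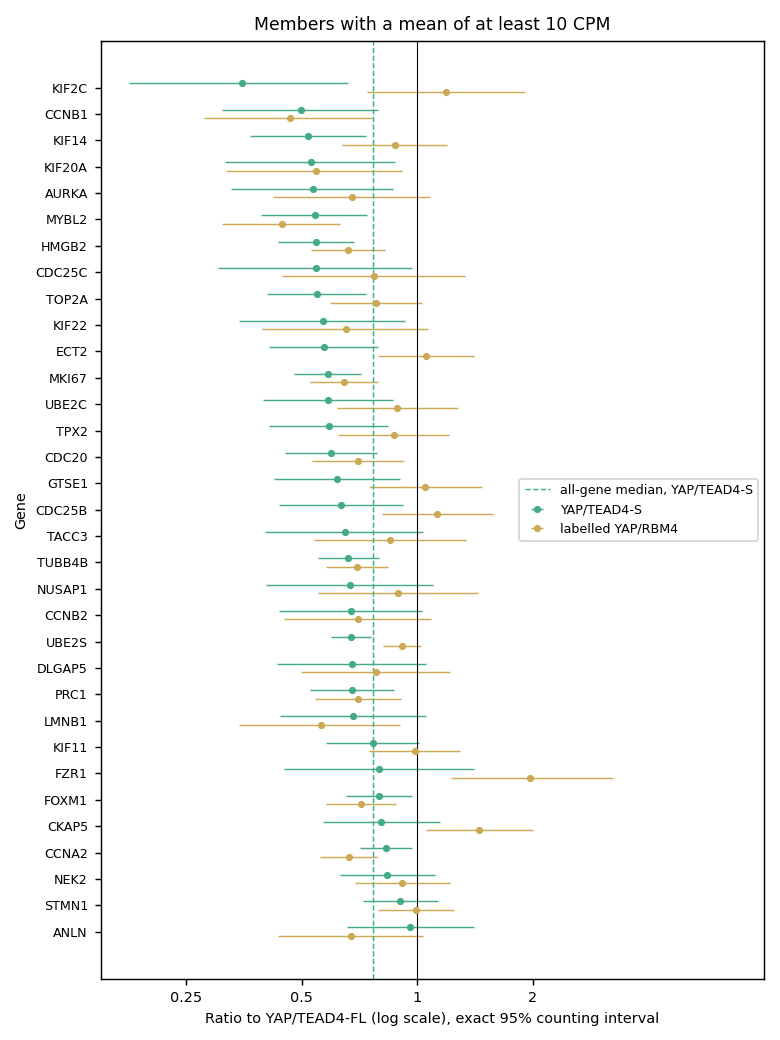
Points are the ratios of TEAD4-S (green) and of the RBM4-labelled library (yellow) to TEAD4-FL on library totals for the 33 members averaging 10 CPM or more, with exact 95% counting intervals on a log axis. All 33 green points lie left of 1, where the dashed line marks the TEAD4-S median of all compared genes, and the yellow intervals of FZR1 and CKAP5 lie wholly right of 1.

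Other genes of the same pathway were read from lists of 14 further APC/C subunits and 23 further mitotic regulators found in the table. Of the APC/C subunits 4 of 14 were at least 2-fold above vector with TEAD4-FL, beside 8.9% of all compared genes, and their median was 0.29 above that of all genes. CDC23, a scaffold subunit, was 2.47-fold above vector (1.48 to 4.29) and ANAPC5 2.09-fold (1.23 to 3.67), while ANAPC11, the RING subunit, was at 1.4 (0.808 to 2.48) and ANAPC13 at 0.680 (0.354 to 1.29). Of the other mitotic regulators 11 of 23 were 2-fold higher, beside the same 8.9%, with a median 0.75 above that of all genes. KIFC1, a minus-end kinesin, was 4.47-fold above vector (2.16 to 10.4), PKMYT1, the membrane-bound kinase that inhibits CDK1, 2.08-fold (1.65 to 2.63), CIT, a cytokinesis kinase, 2.11-fold (1.17 to 3.96), and LIN54, the CHR-binding subunit of the complex that carries MYBL2, 1.5-fold (1.07 to 2.11). For comparison, 14 of 39 kinetochore and passenger genes and 13 of 44 DNA replication genes that were compared were 2-fold above vector with TEAD4-FL, again beside 8.9%, with medians 0.50 and 0.32 above all genes. CENPF, an outer kinetochore protein, was 3.67-fold above vector (2.23 to 6.32), INCENP, the scaffold of the passenger complex, 2.10-fold (1.53 to 2.92), BIRC5 (survivin) 1.79-fold (0.954 to 3.49) and CENPU 1.59-fold (1.32 to 1.92). Of the replication genes, POLD1 was 3.45-fold (2.09 to 5.95), MCM3 2.78-fold (1.91 to 4.15), MCM2 2.60-fold (1.56 to 4.49) and LIG1 2.59-fold (1.75 to 3.89) above vector.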

How the data were processed

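Gene-level RNA-seq values of 5 H157 lines were analysed, with 1 library per line, grouped by the sample labels. The authors used RSEM (version not found) with Bowtie2, given as 2.2.5 by the submitters' processing notes, against hg19, and set the fragment length to a mean of 75 and an SD of 10. The values deposited are expected counts of each gene, neither scaled nor always whole. The methods name polyadenylated RNA as well as a Total RNA kit with Ribo-Zero, and pCDH vectors for stable lines where the label names a pCDNA control.

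CPM were computed on library totals, and log2 ratios after adding 0.5 CPM, for genes averaging 1 CPM or more. A 2-fold ratio was counted as a call. Counts were rounded for exact 95% Clopper-Pearson intervals of ratios and exact Poisson intervals of levels. EBSeq, with which the authors compared libraries, was not repeated. Only scaling factors were taken from edgeR 4.0.16 and from DESeq2 1.42.0, both under R 4.3.3. The remaining steps ran under Python 3.11.15 with pandas 2.3.3, scipy 1.17.1, numpy 2.4.6 and, for plots, matplotlib 3.10.9. The ratio script was tested on simulated data with 200 changed genes. Exon overlaps came from the GENCODE annotation lifted to GRCh37, in which 21537 of 25343 symbols and all 50 members were found.

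The members and the gene lists were chosen with earlier results of these data known. Every member is named, with its 5 levels where these average 10 CPM or more (up to 6 per role), and of the other lists up to 4 genes by the size of the TEAD4-FL to vector ratio at that level. Levels of members under 10 CPM were added after their values were seen. The alternatives were TMM and DESeq2 factors, totals without the 50 most abundant genes, 0.1 or 2 CPM added, no filter, a filter at 10 CPM, calls by the counting interval, leaving out members with over 10% exon overlap, and, chosen after seeing the data, 4 more and TMM scaling of the sums.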

Additional observations from a re-analysis of the deposited data

How the results depend on the processing

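Across 13 alternative settings, 4 of them chosen after seeing the data, 222 of 263 values stayed close to the reported ones. Another 41 moved, none reversed, and all 77 medians kept their direction. These values cover 21 results, the 2-fold counts and the medians of the members, and not the sums or single genes. TMM scaling of the sums, also added, moved TEAD4-S from the lowest of the 4 lines with YAP to above YAP and the RBM4-labelled library. The kinesin sum with TEAD4-S went from 0.986 to 1.21 times vector, and YAP passed TEAD4-FL for the transcription factors. With TMM factors the summed level was 1.73-fold (TEAD4-FL), 1.54-fold (TEAD4-S) and 1.33-fold (RBM4-labelled library) above vector. Members at least 2-fold above vector with TEAD4-S numbered 9 as reported, 17 with TMM factors, 17 with DESeq2 size factors and 18 with totals that left out the 50 most abundant genes. With 2 CPM added there were 2 with TEAD4-S, 9 higher and 0 lower in the RBM4-labelled library, 3 for TEAD4-FL over YAP and 1 lower for the RBM4-labelled library against TEAD4-FL. With no filter the member medians relative to all genes were 0.45 for TEAD4-S over vector and -0.45 for TEAD4-S over TEAD4-FL. Of the 33 members averaging 10 CPM or more, 7, 16, 3 and 8 were 2-fold above vector with YAP, TEAD4-FL, TEAD4-S and in the RBM4-labelled library, where 0 were lower. In that set 1 was higher for TEAD4-FL over YAP, and 1 and 2 were lower than TEAD4-FL with TEAD4-S and in the RBM4-labelled library. Calls by the counting interval gave 17 above and 2 below vector with TEAD4-S, 0 below vector in the RBM4-labelled library, 12 for TEAD4-FL over YAP, 25 below for TEAD4-S over TEAD4-FL, and 2 above and 14 below for the RBM4-labelled library against TEAD4-FL. Added later, the same calls with TMM factors gave 24 above vector with TEAD4-S, 10, 8 below, and 2 above and 18 below in the last 3 comparisons. Of the 31 members with no opposite exon, also added, 16 were 2-fold higher for TEAD4-FL over vector, beside 9.93% of all genes with no opposite exon. For TEAD4-FL over YAP 2 were higher, beside 13.6%, a share below the background, and 0 were lower for TEAD4-S over TEAD4-FL. Of the 22 members with whole counts in every library (within 0.005), also added, 7, 13 and 10 were 2-fold above vector with YAP, TEAD4-FL and in the RBM4-labelled library, 2 for TEAD4-FL over YAP, and 1 was lower for TEAD4-S over TEAD4-FL. The last 2 sets and the filter at 10 CPM hold fewer members. Where no share of all genes stands beside a count here or in the results, the count cannot be set against the background. The causes of the other shifts were not tested. No paired analysis was possible because each line gave 1 library, and none could be left out of a group. Line, clone and library therefore cannot be told apart, and with 15 members under 10 counts in the vector library and 15 in the YAP library, small ratios of those genes were not detectable at this depth.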
